A study of Bos taurus with 18 samples.

Results

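Cauda and corpus epididymidis of high fertility Holstein bulls were compared here across the whole array. The comparison used the 3 arrays whose titles gave the cauda of fertile animals and the 3 whose titles gave the corpus of fertile animals, 6 of the series' 18 arrays, with every difference taken as cauda minus corpus. The remaining arrays held the caput of the same high fertility group (3 arrays) and the caput, corpus and cauda of a medium-low fertility group (3 arrays each). All 6 bulls were sexually mature Holsteins of 51 to 71 months, no group was treated or genetically altered, and fertility was a non-return index at 56 days after 282 to 486 first inseminations per bull. Bulls had been chosen for slaughter on the milk records of their daughters, the organs travelled on ice from a slaughterhouse, and each array measured total RNA of a small frozen piece of 1 dissected segment. Such a piece holds duct epithelium, the muscle and connective tissue around it, vessels and the sperm in the lumen together, so that in every result below fewer cells of a type and less RNA per cell cannot be told apart. The labels number the replicates 1 to 3 in each group without naming the bull behind a number.

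The epididymis is the long coiled duct in which sperm leaving the testis gain motility and the capacity to fertilise. The corpus is its middle stretch, whose epithelium absorbs fluid and secretes proteins that are added to or cut from the sperm surface. The cauda is the distal store, where sperm are kept quiescent in an acidic fluid low in sodium and bicarbonate, and a thick smooth muscle coat expels them at ejaculation.

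The values are log2 signals after robust multi-array averaging (RMA), 1 per probe set and array, given below for replicates 1, 2 and 3 in that order, with no background call, so a value of 4 to 6 may stand for low or for no signal. A fold is 2 raised to the log2 difference between mean array signals and understates large changes of dim or saturated probe sets. Arrays of a group correlated at 0.9858 to 0.9892 in cauda and 0.9882 to 0.9891 in corpus over all probe sets, against 0.9589 to 0.9667 between a cauda and a corpus array, so that no array of either group stood apart. Differences were tested with limma on all 18 arrays, p-values were adjusted over 26773 probe sets by the Benjamini-Hochberg method, and an adjusted p under 0.05 counted as passing. The caput arrays of medium-low bulls spread most (correlations of 0.9505 to 0.9805) and enter the pooled spread of every test.

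Of the 26773 probe sets, 3881 (14.5%) passed, 2010 (7.51%) of them higher and 1871 (6.99%) lower in cauda. At least 2-fold apart were 614 higher (2.29%) and 490 lower (1.83%). With 1 probe set per gene, the brightest, 1790 of 18010 genes (9.94%) were higher and 1389 (7.71%) lower, and these 2 shares are the background for every gene group below. The median difference over all genes was -0.02, and differences ran from -7.23 to 6.64. The 3 cauda arrays lay wholly above the 3 corpus arrays for 16.2% of probe sets and wholly below them for 19.5%. Steep differences were more often losses in cauda: 24 probe sets were at least 4 log2 units lower, against 11 that were higher by as much.

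**Figure D1:**
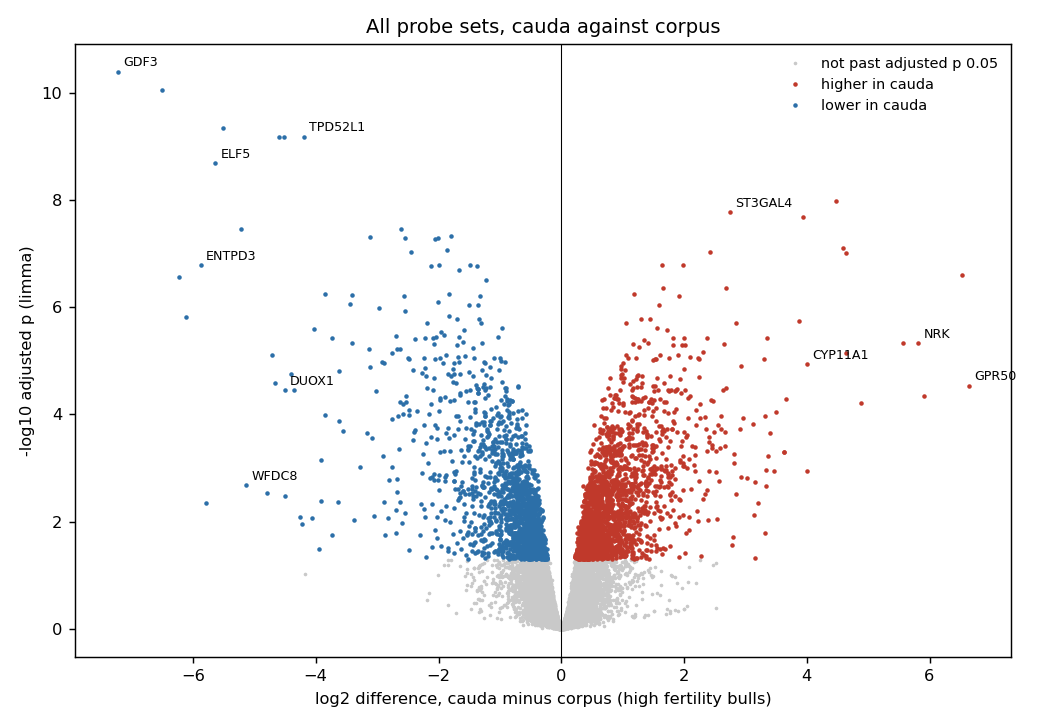
Each point is 1 probe set: the horizontal axis gives the log2 difference cauda minus corpus in high fertility bulls and the vertical axis -log10 of the limma adjusted p; grey points did not pass. Passing probe sets number 2010 higher (red) and 1871 lower (blue), GPR50 lies at the far right and GDF3 at the far left.

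The largest gain was GPR50, an orphan receptor of the melatonin receptor family. GPR50 read 12.56, 12.39 and 12.65 in cauda, against 5.77, 5.85 and 6.07 in corpus, a log2 difference of 6.64 (SE 0.74, adjusted p 2.93e-05). S100G, the calcium-binding protein calbindin D9k, read 11.54, 11.80 and 11.28 in cauda, against 5.27, 5.99 and 5.63 in corpus (log2 difference 5.91, SE 0.69, adjusted p 4.53e-05). The corpus arrays were dim and the cauda arrays bright for both genes, with no overlap. NRK, a germinal centre kinase family member, read 10.88, 10.45 and 11.77 in cauda, against 5.34, 5.10 and 5.20 in corpus (log2 difference 5.82, SE 0.53, adjusted p 4.7e-06), and its other probe set differed by 5.57.

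Secreted and surface proteins were next among the gains. SCGB1D, a small secreted protein of the secretoglobin family, read 9.99, 10.94 and 9.06 in cauda, against 5.34, 4.95 and 5.06 in corpus (log2 difference 4.88, adjusted p 6.15e-05), with cauda arrays spread over almost 2 log2 units and still far above corpus. PROM2, a cholesterol-binding protein of plasma membrane protrusions, read 11.32, 11.94 and 11.37 in cauda, against 7.01, 7.01 and 6.69 in corpus (log2 difference 4.64, adjusted p 7.25e-06). MMP7, matrilysin, an epithelial matrix metalloprotease, read 10.25, 9.12 and 10.45 in cauda, against 6.07, 6.11 and 5.61 in corpus (log2 difference 4.01, adjusted p 0.00116). CYP11A1, the mitochondrial enzyme that cuts the cholesterol side chain at the first step of steroid synthesis, read 9.49, 9.69 and 9.63 in cauda, against 5.59, 5.65 and 5.58 in corpus. Its difference of 3.997 (SE 0.40, adjusted p 1.16e-05) came with the arrays of each group close together.

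Ion channels made up much of the rest of the 12 largest gains. SCNN1A, the pore-forming alpha subunit of the epithelial sodium channel, read 10.20, 10.81 and 10.32 in cauda, against 6.46, 6.56 and 6.48 in corpus (log2 difference 3.94, SE 0.21, adjusted p 2.1e-08). P2RX2, an ATP-gated cation channel, read 9.57, 10.41 and 10.52 in cauda, against 6.14, 6.28 and 6.44 in corpus (log2 difference 3.88, adjusted p 1.84e-06). KCNT1, a sodium-activated potassium channel, read 10.10, 11.86 and 9.74 in cauda, against 7.14, 6.72 and 6.86 in corpus (log2 difference 3.66, adjusted p 5.07e-05). The second cauda array was the highest of the 3 by more than 1.5 log2 units for KCNT1. KCNIP3, a calcium-binding partner of potassium channels that also acts as a transcriptional repressor, read 10.62, 11.08 and 10.55 in cauda, against 6.23, 6.46 and 6.15 in corpus (log2 difference 4.47, SE 0.22, adjusted p 1.07e-08), while the gene's other probe set differed by 0.88. NUDT10, a phosphohydrolase of inositol pyrophosphates, closed the set with 9.89, 9.74 and 9.99 in cauda, against 7.05, 5.75 and 5.91 in corpus (log2 difference 3.64, adjusted p 0.000502).

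The largest loss, and the smallest adjusted p of all probe sets with 1 named gene, was GDF3, a ligand of the TGF-beta superfamily. GDF3 read 4.99, 4.54 and 5.23 in cauda, against 12.23, 12.18 and 12.03 in corpus (log2 difference -7.23, SE 0.21, adjusted p 4.1e-11), a 149.8-fold lower signal. ENTPD3, a membrane enzyme that hydrolyses extracellular ATP and ADP, read 6.66, 6.62 and 6.45 in cauda, against 12.64, 12.63 and 12.08 in corpus (log2 difference -5.87, SE 0.38, adjusted p 1.66e-07). GDF3 was at the low end of the signal range in cauda, and for both genes the groups were separated by over 5 log2 units. QPCT, glutaminyl cyclase, which closes the N-terminal ring of secreted peptides, read 5.45, 5.12 and 5.24 in cauda, against 10.88, 11.13 and 11.17 in corpus. Its difference of -5.79 was as sharp between these groups, but the pooled SE was 1.21 (adjusted p 0.00441).

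ELF5, an ETS-family transcription factor of secretory epithelia, read 5.35, 5.33 and 5.74 in cauda, against 11.002, 11.17 and 11.15 in corpus (log2 difference -5.64, SE 0.25, adjusted p 2.09e-09). It was the one gene among the 12 largest losses known as a transcription factor. WFDC8 and SPINLW1 (EPPIN in other species) are secreted inhibitors with whey acidic protein domains, SPINLW1 also with a Kunitz domain, and EPPIN coats ejaculated human sperm. WFDC8 read 7.92, 8.23 and 7.75 in cauda, against 13.04, 13.12 and 13.15 in corpus (log2 difference -5.13, adjusted p 0.00211), and SPINLW1 read 7.31, 7.61 and 6.62 in cauda, against 11.41, 12.29 and 11.98 in corpus (log2 difference -4.71, adjusted p 7.7e-06). Corpus signals of WFDC8 were among the brightest on the array, and no cauda array came within 4 log2 units of them.

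DUOX1, an NADPH oxidase that releases hydrogen peroxide at the cell surface, and DUOXA1, its maturation factor, were lower together. DUOX1 read 6.92, 7.30 and 7.09 in cauda, against 11.63, 11.75 and 11.45 in corpus (log2 difference -4.50, adjusted p 3.53e-05), and DUOXA1 read 6.71, 6.61 and 6.45 in cauda, against 11.24, 11.46 and 11.06 in corpus (log2 difference -4.66, adjusted p 2.64e-05). GLB1L2 and GLB1L3, relatives of the lysosomal beta-galactosidase, showed the same step. GLB1L2 read 7.16, 6.92 and 7.18 in cauda, against 11.41, 11.80 and 11.63 in corpus (log2 difference -4.52, SE 0.18, adjusted p 6.67e-10), and GLB1L3 read 5.26, 6.36 and 5.33 in cauda, against 9.39, 10.80 and 10.27 in corpus (log2 difference -4.51, SE 0.91, adjusted p 0.00338). LOC613358, a metallothionein by its listed synonym, read 6.59, 6.78 and 6.86 in cauda, against 11.31, 11.05 and 11.10 in corpus (log2 difference -4.40, adjusted p 1.75e-05). Metallothionein copies are near-identical and probes may be shared among them. LOC532207, which the tables used here do not describe, read 6.59, 6.71 and 6.63 in cauda, against 11.59, 11.18 and 10.95 in corpus (log2 difference -4.60, adjusted p 6.67e-10).

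**Figure D2:**
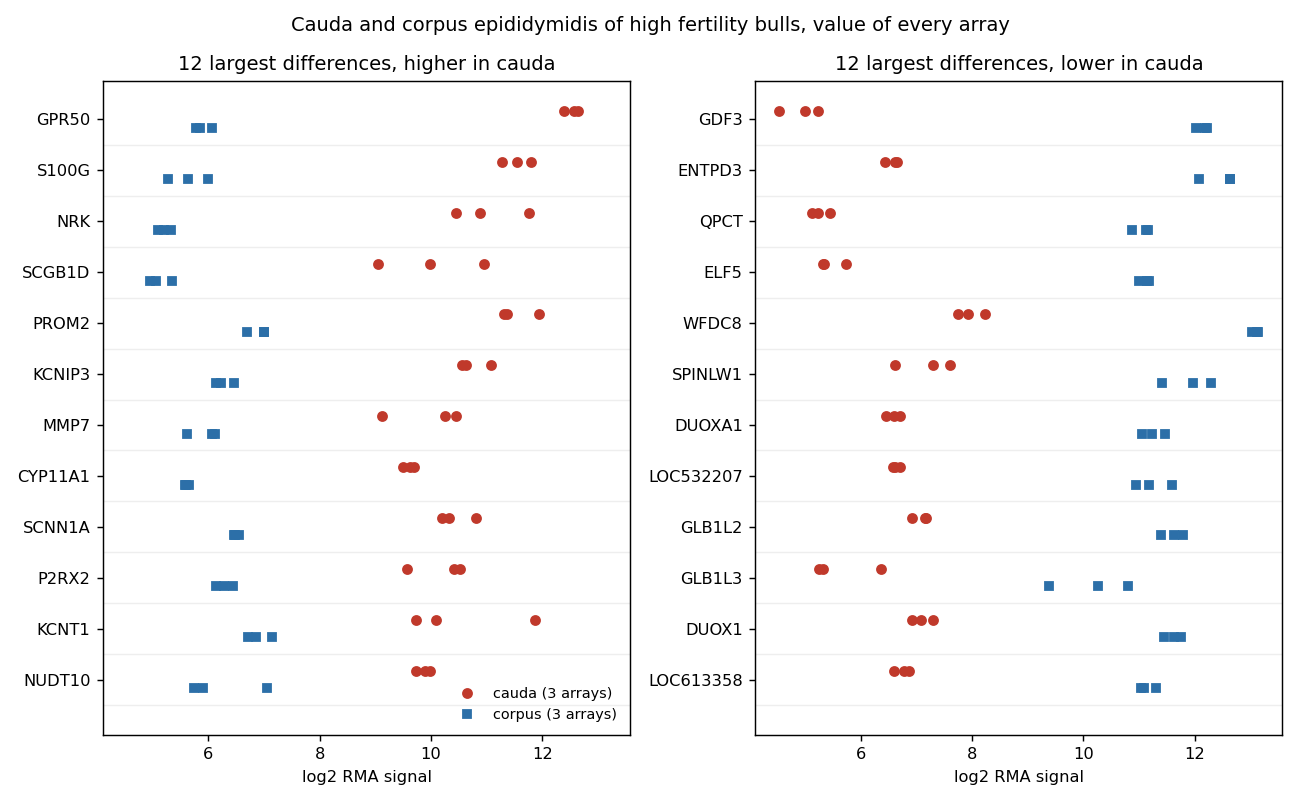
Log2 RMA signal (horizontal axis) of every cauda (red circles) and corpus (blue squares) array of high fertility bulls for the 12 genes with the largest gain and the 12 with the largest loss in cauda. In all 24 genes the groups do not overlap, from GPR50 at 6.64 to GDF3 at -7.23 log2 units.

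Several of these genes are neighbours. In the order of protein-coding genes of the reference annotation (assembly ARS-UCD2.0, used for names and order only), DUOX1 lies beside DUOXA1, SPINLW1 beside WFDC8, GLB1L3 beside GLB1L2, PROM2 beside KCNIP3 and QPCT beside PRKD3, a protein kinase D whose log2 difference was -1.41. Among adjacent genes that both passed with at least a 2-fold difference, 63 pairs moved the same way and 20 moved opposite ways. Over all genes, 550 were higher and 402 lower at this cut, so many unrelated pairs would also share a direction. The split of the pairs was not tested. Some pairs, such as TUBA4A and TUBA1D, belong to 1 gene family, and probes may be shared among its members. LOC613358 lies in a run with LOC768319 (-2.11) and MT1A (-1.32), both of which the annotation's symbols or synonyms give as metallothioneins. PRKD3, LOC768319 and MT1A were chosen after their values were seen.

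The smallest adjusted p-values that were not among those 24 genes belonged to 5 genes with narrow spread. TPD52L1, a coiled-coil protein of the tumour protein D52 family, read 5.79, 5.68 and 6.11 in cauda, against 9.91, 10.21 and 10.05 in corpus (log2 difference -4.20, SE 0.17, adjusted p 6.67e-10). ST3GAL4, which adds alpha-2,3-linked sialic acid to galactose on glycoproteins, read 10.46, 10.75 and 10.76 in cauda, against 7.94, 7.70 and 8.09 in corpus (log2 difference 2.75, adjusted p 1.68e-08). USH1C, the scaffold protein harmonin, which also organises brush border microvilli, read 6.64, 6.74 and 6.42 in cauda, against 9.24, 9.32 and 9.09 in corpus (log2 difference -2.62, adjusted p 3.44e-08). In each of these genes every array of a group lay within 0.5 log2 units of the others, and the gap between groups was several times as wide. MED4, a Mediator subunit, differed by -2.01 (adjusted p 5.25e-08) and SLC35E2B, of a nucleotide sugar transporter family, by -1.80 (adjusted p 4.7e-08).

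The level in the caput of the same bulls places these changes along the duct, given here as levels only because both comparisons would share arrays. GDF3 read 4.95, 4.90 and 4.80 in caput, ENTPD3 5.89, 5.75 and 5.88 and LOC532207 6.50, 6.08 and 6.08, with caput means below the cauda means, so that all 3 peaked in corpus. WFDC8 read 13.26, 13.20 and 13.40, QPCT 11.40, 11.29 and 12.09 and TPD52L1 10.39, 10.09 and 10.27 in caput, levels close to those of corpus, and the step lay between corpus and cauda. ELF5 (8.25, 8.52 and 9.03) and DUOX1 (8.53, 7.50 and 9.44) were intermediate in caput. Of the gains, GPR50 (6.13, 6.21 and 6.11) and SCNN1A (6.45, 6.60 and 6.72) were as low in caput as in corpus, whereas CYP11A1 (7.98, 8.40 and 7.76) was lowest in corpus.

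**Figure D3:**
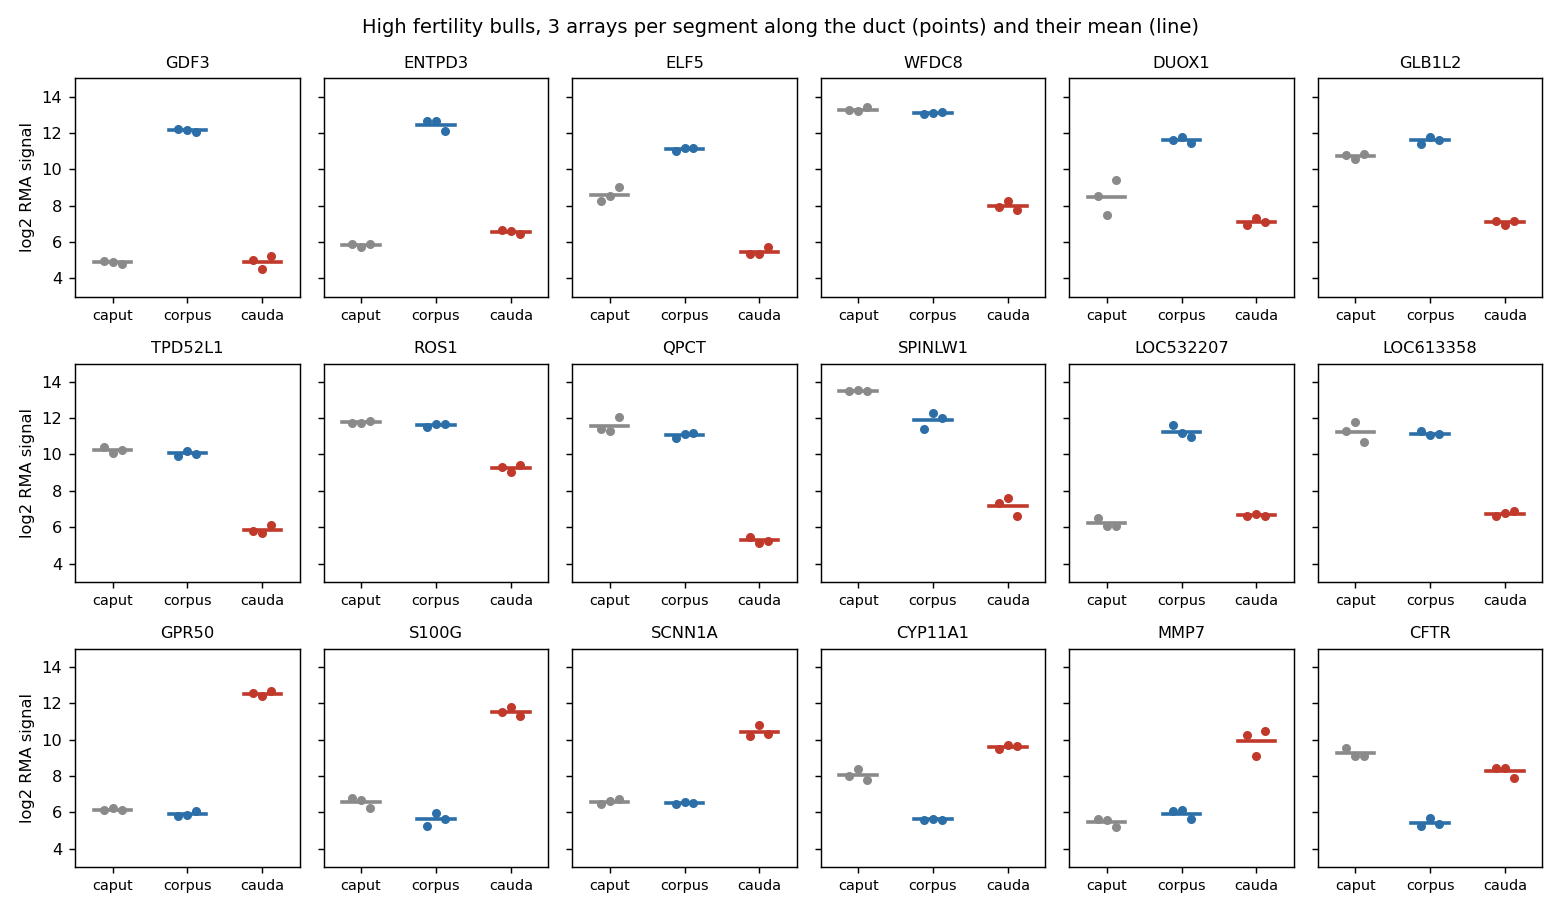
Log2 RMA signal (vertical axis) of the 3 arrays (points) and their mean (line) in caput, corpus and cauda of high fertility bulls for 18 genes. GDF3, ENTPD3 and LOC532207 are high in corpus alone, WFDC8, QPCT, ROS1 and TPD52L1 are high in caput and corpus, GPR50, S100G, SCNN1A and MMP7 in cauda alone, and CYP11A1 and CFTR are lowest in corpus.

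Genes of the smooth muscle coat had the highest share of gains among the 51 gene lists. Of 23 measured contractile genes, 20 were higher in cauda and 0 lower (background 9.94% and 7.71%), with a median difference of 1.18, against -0.02 over all genes. DES, the muscle intermediate filament desmin, read 13.49, 13.33 and 13.62 in cauda, against 12.04, 11.90 and 12.22 in corpus (log2 difference 1.43, SE 0.17, adjusted p 5.89e-05). SYNPO2 and SYNM, which tie actin and desmin filaments together, had the largest differences at 2.14 and 2.09 (adjusted p 0.000387 and 4.5e-05). ACTN1, an actin crosslinker, differed by 1.40, ACTG2, enteric smooth muscle actin, by 1.38, and PDLIM3, a Z-line protein, by 1.60. The mean over the list was 11.30, 11.15 and 11.54 in the 3 cauda arrays, against 10.17, 9.99 and 10.45 in the 3 corpus arrays, so that every cauda array lay above every corpus array. HSPB6, the small heat shock protein of smooth muscle, did not pass (0.45, adjusted p 0.165), nor did the myocardin gene MYOCD (0.52, adjusted p 0.0897), for which the paired fit gave 0.0268.

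Here and below the paired fit is a fit of the 6 cauda and corpus arrays with the replicate number as a block, and it is given where it changed a call or moved a count more than 1.5 times. Connective tissue genes were higher in part. Of 28 fibroblast and matrix genes, 9 were higher and 0 lower, with a median of 0.60, and the paired fit called 18 higher and 1 lower. TNC, the matrix glycoprotein tenascin-C, read 11.04, 10.99 and 9.52 in cauda, against 7.38, 7.63 and 8.11 in corpus (log2 difference 2.81, adjusted p 0.000543), and FN1, fibronectin, read 11.71, 11.56 and 11.68 in cauda, against 9.77, 9.42 and 9.83 in corpus (log2 difference 1.98, adjusted p 0.000791). ASPN, a small leucine-rich proteoglycan, differed by 1.93, the WNT-binding SFRP4 by 1.48, elastin (ELN) by 1.32 and OGN by 1.30. ASPN and OGN sit in a run of 4 small proteoglycan genes, OGN, OMD, ASPN and ECM2, that all passed (OMD 1.67 and ECM2 1.21, named after their values were seen). DCN, decorin, the brightest of the list, differed by -0.09 (adjusted p 0.8), VIM by 0.47 (adjusted p 0.12, paired fit 0.0469) and COL6A1 by 0.35 (adjusted p 0.405). The call of OGN was lost without cauda replicate 3 or corpus replicate 1 or 2 (adjusted p 0.0751 to 0.101).

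Endothelial genes were also higher in part. Of 20, 7 were higher and 1 lower, with a median of 0.36. The higher count was 3 to 6 without 1 of the 6 arrays, the lowest without cauda replicate 3 or corpus replicate 2. PECAM1, an endothelial junction protein, read 9.29, 9.46 and 9.57 in cauda, against 8.83, 8.63 and 8.78 in corpus (log2 difference 0.69, adjusted p 0.00824), and LYVE1, the hyaluronan receptor of lymphatic vessels, differed by 1.11 (adjusted p 0.00976). KDR, the main receptor for VEGF-A, went against the rest at 7.81, 7.65 and 7.85 in cauda, against 8.98, 9.21 and 8.90 in corpus (log2 difference -1.27, SE 0.17, adjusted p 0.00016). EMCN and TEK differed by 0.97 and 0.71, calls that were lost without cauda replicate 3 or corpus replicate 2 (adjusted p 0.0548 to 0.0595) and without cauda replicate 1 or 3 or corpus replicate 2 (adjusted p 0.0641 to 0.125). EGFL7 differed by 0.60 (adjusted p 0.00364, paired fit 0.0625). CDH5 differed by 0.42 (adjusted p 0.0972) and FLT1, another VEGF receptor, by 0.17 (adjusted p 0.51).

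The defining markers of luminal epithelium differed little. EPCAM, an epithelial adhesion molecule, read 11.35, 11.33 and 10.89 in cauda, against 11.18, 11.31 and 11.06 in corpus (log2 difference 0.01, adjusted p 0.981), CDH1, E-cadherin, differed by -0.13 (adjusted p 0.751), and KRT8 by -0.21 (adjusted p 0.464). The EPCAM arrays of the segments overlapped, and none of the 3 markers passed. Beside ELF5, 3 further genes of the 13-gene list were lower: the renal and genital tract factor PAX8 (means of 9.82 in cauda and 10.82 in corpus, adjusted p 0.0206), GRHL2 at -0.60 (adjusted p 0.00471) and EHF at -0.26 (adjusted p 0.0252, paired fit 0.12). The paired fit called 1 higher and 4 lower in that list. PAX8 lost its call without cauda replicate 2 or 3 or corpus replicate 1 or 2 (adjusted p 0.0549 to 0.0754), and EHF without cauda replicate 2 or 3 or corpus replicate 1 or 2 (adjusted p 0.0547 to 0.104). Of 15 basal cell genes, KRT5 differed by -0.86 (adjusted p 0.0139) and DST by 0.66 (adjusted p 0.0362), KRT5 losing its call without cauda replicate 1 or corpus replicate 2 (adjusted p 0.0584 to 0.067) and DST without cauda replicate 1 or 3 or corpus replicate 1 or 2 (adjusted p 0.0665 to 0.163). TP63, the basal cell factor, differed by -0.39 (adjusted p 0.296).

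At most 2 genes passed in any list of leukocyte, fat or blood markers. Of 16 phagocyte genes 2 were higher and 0 lower, of 17 T and natural killer cell genes 0 higher and 1 lower, of 9 B and plasma cell genes 1 higher and 0 lower, of 10 mast cell and blood genes 0 higher and 0 lower, and of 9 adipocyte genes 0 higher and 1 lower. The paired fit called 1 phagocyte gene higher, 3 T and natural killer cell genes lower and 0 B and plasma cell genes higher. CD14, a monocyte coreceptor for endotoxin, differed by 0.59 (adjusted p 0.0031). Among 13 nerve and glia genes, CDH19, a Schwann cell cadherin, was higher (1.33, adjusted p 0.000897) and S100B lower (-1.10, adjusted p 0.00471). PNPLA2, the adipose triglyceride lipase, which many tissues express, was lower (-1.02, adjusted p 0.00131).

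Of 37 sperm and spermatid genes, 1 was higher and 0 were lower, with 3 higher in the paired fit. PRM1, the protamine that packs sperm DNA and the brightest of the list, read 10.61, 11.61 and 11.97 in cauda, against 10.94, 10.61 and 10.89 in corpus, with overlapping groups (log2 difference 0.58, adjusted p 0.71). ZPBP2, a zona pellucida binding protein, read 8.48, 8.90 and 8.45 in cauda, against 6.97, 6.63 and 6.57 in corpus (log2 difference 1.89, adjusted p 3.31e-05) and lies beside IKZF3 (1.79), the gene of a lymphoid zinc finger factor, named after its values were seen. ODF2 differed by 0.07 (adjusted p 0.895) and TNP2 by -0.35 (adjusted p 0.778).

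**Figure D4:**
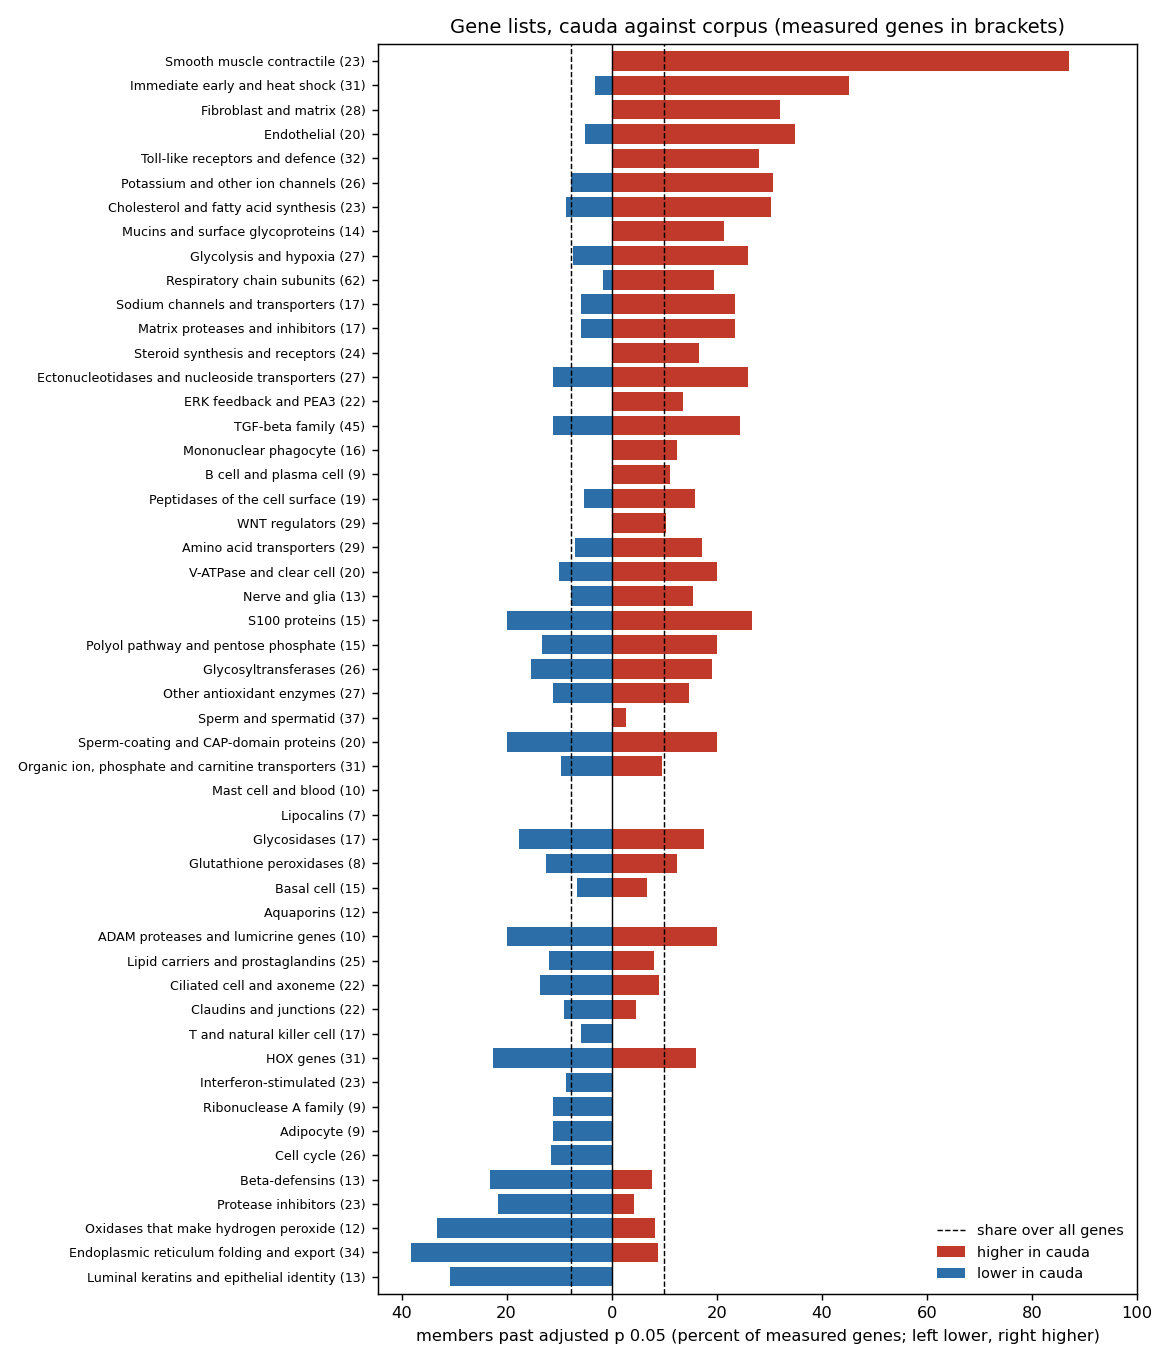
For each gene list, bars give the percentage of measured members (number in brackets) that passed adjusted p 0.05, to the right for higher in cauda and to the left for lower in cauda; dashed lines give the shares over all genes, 9.94% and 7.71%. Smooth muscle genes stand at 87% higher, immediate early genes at 45.2% higher, and endoplasmic reticulum genes at 38.2% lower.

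The genes that move sodium set the water content of the duct's fluid. Of 17 genes of sodium transport, 4 were higher and 1 lower (median 0.43), with 5 and 0 in the paired fit. Beside SCNN1A, the gains were SLC12A2, the sodium-potassium-chloride cotransporter NKCC1 (2.01, adjusted p 0.0384), ATP1B1, a beta subunit of the sodium pump, and ST14, the protease matriptase (0.87, adjusted p 0.0112). ATP1B1 read 8.92, 8.76 and 9.06 in cauda, against 7.56, 7.34 and 7.37 in corpus (log2 difference 1.50, adjusted p 9.67e-06), so the groups were apart by over 1 log2 unit. NEDD4L, the ubiquitin ligase that removes the sodium channel from the membrane, was lower (-0.64, adjusted p 0.035, paired fit 0.0557). SLC12A2 lost its call without any 1 of the 6 arrays (adjusted p 0.0578 to 0.12), and NEDD4L without cauda replicate 1, 2 or 3 or corpus replicate 1 or 2 (adjusted p 0.0562 to 0.126). SGK1, a kinase that activates the channel, differed by 0.41 (adjusted p 0.0962), and the channel-activating protease PRSS8 by -0.36 (adjusted p 0.132). SCNN1B and SCNN1G, the channel's beta and gamma subunits, were not among the genes that passed. Cauda minus corpus differences of same-numbered arrays were 0, -0.38 and -0.08 for SCNN1B and 0.34, 1.04 and -0.01 for SCNN1G. Both were named after their values were seen.

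CFTR, the cyclic AMP-gated chloride and bicarbonate channel, read 8.44, 8.43 and 7.90 in cauda, against 5.23, 5.67 and 5.34 in corpus (log2 difference 2.84, SE 0.23, adjusted p 1.97e-06). Its caput level was 9.25 ± 0.24 (mean ± SD, n = 3), so corpus was the lowest of the 3 segments. Its exchanger partners of the SLC26 family went opposite ways. SLC26A3, a chloride-bicarbonate exchanger, read 9.76, 9.58 and 10.31 in cauda, against 7.62, 7.29 and 6.33 in corpus (log2 difference 2.80, adjusted p 0.0197), whereas SLC26A4, pendrin, read 5.64, 5.53 and 6.48 in cauda, against 8.15, 8.21 and 8.02 in corpus (log2 difference -2.24, adjusted p 8.98e-06). Of the proton pump of clear cells, ATP6V0D2 was lower (-1.63, adjusted p 0.00214) and ATP6V1A higher (0.49, adjusted p 0.0164, paired fit 0.0563). The 20-gene list of the pump and clear cells also holds CFTR, its largest gain, and SLC26A4, its largest loss. In that list 4 were higher and 2 lower, with 2 and 3 in the paired fit, so these counts are not of pump subunits alone. SLC26A3 lost its call without cauda replicate 3 or corpus replicate 3 (adjusted p 0.0721 to 0.0846), and ATP6V1A without cauda replicate 1 or 3 or corpus replicate 3 (adjusted p 0.0505 to 0.0831).

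Of 26 potassium and other channels, 8 were higher and 2 lower (median 0.20). The voltage-gated sodium channel SCN9A read 7.30, 5.04 and 7.28 in cauda, against 10.27, 10.02 and 10.87 in corpus (log2 difference -3.84, adjusted p 0.000101), while SCN7A, a sodium-sensing relative, was higher (1.59, adjusted p 0.00223). SCN9A was high in all 3 corpus arrays, and the second cauda array was the lowest of all. CLCN5, an endosomal chloride-proton exchanger, was higher (1.29, adjusted p 5.51e-05), and KCNK1, a background potassium channel, lower (-0.96, adjusted p 0.000327). None of 12 aquaporins passed: AQP9, the most abundant by signal here and a channel for water and small solutes, read 12.80, 12.66 and 12.59 in cauda, against 12.70, 12.84 and 12.75 in corpus (log2 difference -0.08, adjusted p 0.781). AQP1 differed by 0.79 (adjusted p 0.106) and AQP7 by -0.88 (adjusted p 0.279), and both passed in the paired fit (0.0101 and 0.0156).

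Of 22 genes of tight junctions, 1 was higher and 2 were lower, shares of 4.55% and 9.09% beside 9.94% and 7.71% over all genes, and the paired fit called 1 higher and 4 lower. CLDN10, a pore-forming claudin, read 10.21, 8.12 and 9.95 in cauda, against 6.19, 6.03 and 6.09 in corpus (log2 difference 3.32, adjusted p 0.0161), with the second cauda array nearly 2 log2 units below the other two. CLDN4 read 9.29, 9.46 and 8.76 in cauda, against 11.12, 11.41 and 10.84 in corpus (log2 difference -1.95, adjusted p 0.00636), and CLDN7 differed by -0.77 (adjusted p 0.00198). CLDN4 and CLDN7 seal the path between cells. CLDN10 lost its call without cauda replicate 1 or 3 (adjusted p 0.0625 to 0.0678). The scaffold TJP1 and CLDN8 differed by -0.13 and -0.22 (adjusted p 0.318 and 0.702), and F11R, a junctional adhesion molecule, by -0.19 (adjusted p 0.3).

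Nucleotide handling holds P2RX2 and ENTPD3 of the largest changes. Of 27 nucleotidases, nucleotide receptors and nucleoside carriers, 7 were higher and 3 lower. The higher count was 4 to 7 without 1 of the 6 arrays, the lowest without corpus replicate 3. P2RY2, a receptor for ATP and UTP, read 9.83, 9.84 and 9.84 in cauda, against 7.88, 7.70 and 7.80 in corpus (log2 difference 2.04, adjusted p 0.00102). ENTPD2, an ATP-hydrolysing relative of ENTPD3, went the other way from it at 9.41, 9.28 and 9.18 in cauda, against 7.29, 7.35 and 7.49 in corpus (log2 difference 1.91, adjusted p 6.13e-07). In caput ENTPD2 stood at 7.38 ± 0.25 (mean ± SD, n = 3). The receptor P2RX4 (1.09, adjusted p 0.0115) and the nucleoside carrier SLC29A1 (1.001, adjusted p 0.0171) were higher, calls that were lost without corpus replicate 3 (adjusted p 0.0531) and without cauda replicate 1 or 3 or corpus replicate 3 (adjusted p 0.0584 to 0.0779). ENPP3, the brightest ectonucleotidase, differed by 0.14 (adjusted p 0.749).

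Secreted protease inhibitors were lower on balance: of 23, 5 were lower and 1 higher, and the paired fit called 8 lower and 2 higher. After WFDC8 and SPINLW1, SPINK2B, a Kazal-type inhibitor whose relative SPINK2 blocks acrosin, read 8.05, 8.16 and 7.60 in cauda, against 10.66, 10.36 and 11.28 in corpus (log2 difference -2.83, adjusted p 0.00867). The cystatin CST6 was lower (-0.88, adjusted p 0.00349), and WFDC1 higher (0.71, adjusted p 0.0128), a call lost without cauda replicate 3 or corpus replicate 2 (adjusted p 0.0585 to 0.06). The brightest inhibitors that did not pass were WFDC2 and WFDC10A: WFDC2 (HE4) read 13.58, 13.53 and 13.48 in cauda, against 13.58, 13.09 and 13.68 in corpus (log2 difference 0.08, adjusted p 0.942), and WFDC10A differed by 0.29 (adjusted p 0.196).

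Of 13 beta-defensins, small cationic peptides of which several coat sperm, 3 were lower and 1 higher, against 6 and 2 in the paired fit. DEFB116 read 6.94, 7.38 and 6.74 in cauda, against 9.40, 9.66 and 9.92 in corpus (log2 difference -2.64, adjusted p 0.000436). LOC783025, listed with the synonym SPAG11B, an androgen-dependent epididymal defensin-like gene, differed by -1.34 (adjusted p 0.0076), and the enteric defensin EBD by -1.08 (adjusted p 0.00549). DEFB110 did not pass and was not the 1 member counted as higher. Its arrays read 11.44, 11.54 and 10.53 in cauda, against 10.46, 10.01 and 10.08 in corpus, with cauda wholly above corpus (0.99, adjusted p 0.0784, paired fit 0.0358). Copies in this family are similar, and probes may be shared among them.

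Among 20 sperm-coating and CAP-domain proteins, 4 were higher and 4 lower, against 3 higher and 7 lower in the paired fit. ELSPBP1, which binds choline phospholipids of the sperm membrane, read 9.85, 10.70 and 9.41 in cauda, against 12.99, 13.11 and 12.93 in corpus (log2 difference -3.02, adjusted p 3.74e-05). CRISP3, a cysteine-rich secretory protein, read 11.77, 12.14 and 11.59 in cauda, against 9.91, 10.18 and 9.98 in corpus (log2 difference 1.81, adjusted p 0.000191). CLU, clusterin, a secreted chaperone of epididymal fluid, read 12.62, 12.06 and 12.92 in cauda, against 13.65, 13.71 and 13.67 in corpus (log2 difference -1.14, adjusted p 0.0069), and CRISPLD1 differed by -1.25 (adjusted p 0.00143). NPC2, a sterol carrier secreted into this fluid, read 13.51, 13.58 and 13.41 in cauda, against 13.69, 13.68 and 13.68 in corpus, a narrow range near the top of the array (-0.18, adjusted p 0.26). CRISP1 differed by -0.58 (adjusted p 0.534) and AKR1B1, the aldose reductase also found on bull sperm, by -0.02 (adjusted p 0.961).

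ROS1, the receptor kinase that mouse caput epithelium needs for its differentiation, was lower at 9.30, 9.02 and 9.41 in cauda, against 11.54, 11.67 and 11.68 in corpus (log2 difference -2.39, adjusted p 0.000198). Its ligand NELL2, which reaches the duct from the testis in the mouse, differed by -0.54 (adjusted p 0.0129), a call lost without cauda replicate 2 or corpus replicate 1 (adjusted p 0.0536 to 0.0567). Of the ribonuclease A family, 1 of 9 passed, and 2 in the paired fit. LOC280930, listed with the synonym RNASE1, read 7.22, 6.68 and 6.54 in cauda, against 9.74, 8.31 and 8.45 in corpus (log2 difference -2.02, adjusted p 0.000287). RNASE10, an epididymal member without ribonuclease activity, read 6.62, 6.24 and 6.48 in cauda, against 6.73, 9.46 and 6.40 in corpus, so that 1 corpus array alone stood about 3 log2 units above all the others (adjusted p 0.318). None of 7 lipocalins passed, while the paired fit called 1 higher and 1 lower. PTGDS, prostaglandin D synthase, differed by -0.38 (adjusted p 0.392).

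Cell surface peptidases and sugar enzymes split by gene. Neprilysin (MME), which degrades small peptides, read 9.98, 10.27 and 10.04 in cauda, against 8.02, 8.01 and 8.39 in corpus (log2 difference 1.95, adjusted p 0.000386), opposite to QPCT in the same list of 19 (3 higher, 1 lower). Of 17 glycosidases 3 were higher and 3 lower, with 6 and 4 in the paired fit. The lysosomal sialidase NEU1 (0.98, adjusted p 0.00166) and the membrane sialidase NEU3 (0.72, adjusted p 0.00215) were higher, and the beta-mannosidase MANBA lower (-0.71, adjusted p 0.00768). Of 26 glycosyltransferases 5 were higher and 4 lower (4 and 7 in the paired fit). Beside ST3GAL4, GALNT3, which starts mucin-type chains, was higher (1.81, adjusted p 0.00114), and ST8SIA6 (-2.12, adjusted p 0.000263) and ST6GAL2 (-1.10, adjusted p 0.000512), which add alpha-2,8- and alpha-2,6-linked sialic acid, were lower.

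Among 12 peroxide-making oxidases and their partners, 4 were lower and 1 higher, against 3 lower and 2 higher in the paired fit. The lower ones are both DUOX enzymes and both of their maturation factors. DUOX2 read 6.33, 6.03 and 5.97 in cauda, against 7.27, 7.13 and 7.08 in corpus (log2 difference -1.05, adjusted p 0.000184) and DUOXA2 differed by -0.42 (adjusted p 0.0302, paired fit 0.0584), a call lost without cauda replicate 1 or 3 or corpus replicate 1 or 3 (adjusted p 0.0705 to 0.112). CYBB, the phagocyte oxidase subunit, was higher (0.51, adjusted p 0.00236). Of the enzymes that remove peroxide, GPX5, the secreted epididymal glutathione peroxidase, read 9.73, 8.53 and 9.42 in cauda, against 6.95, 6.35 and 6.95 in corpus, wholly above corpus, against 13.54, 13.38 and 13.67 in caput. Its difference of 2.47 did not pass (SE 0.84, adjusted p 0.0643), and the paired fit gave 0.00109. GPX3 differed by -0.38 (adjusted p 0.743), and GPX8, of the endoplasmic reticulum, was lower (-0.73, adjusted p 0.00907). GSR, glutathione reductase, read 10.37, 10.51 and 9.88 in cauda, against 8.87, 8.83 and 8.43 in corpus (log2 difference 1.55, adjusted p 7.76e-05), and the microsomal transferase MGST1 differed by 1.05 (adjusted p 0.00578), while GSTM3, the brightest of 27 other antioxidant genes, differed by -0.20 (adjusted p 0.105).

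Genes of the endoplasmic reticulum's folding machinery were lower as a group. Of 34, 13 were lower and 3 higher (median -0.31, against -0.02 over all genes). The lower count was 8 to 13 without 1 of the 6 arrays, the lowest without cauda replicate 3. HSPA5, the chaperone BiP, read 12.29, 12.19 and 12.02 in cauda, against 13.03, 13.06 and 13.08 in corpus (log2 difference -0.89, SE 0.11, adjusted p 8.18e-05). Its cochaperones DNAJB9 and DNAJB11 differed by -1.08 and -1.04 (adjusted p 0.000282 and 0.000322). The disulfide isomerase PDIA4 differed by -1.05, the chaperone HYOU1 by -0.96 and the secreted stress factor MANF by -0.89 (adjusted p 0.0026, 0.000669 and 0.00805). CANX, PDIA3 and SSR4, the brightest members that did not pass, differed by -0.10, -0.03 and 0.20 (adjusted p 0.49, 0.876 and 0.427). The mean over the list was 10.58, 10.69 and 10.42 in the cauda arrays, against 10.83, 10.92 and 10.83 in the corpus arrays, with no overlap. The smooth muscle list, higher in every cauda array, moves with this list in the opposite direction, and its part in the result was not tested.

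Lipid and steroid metabolism also held genes with large gains. Of 23 genes of cholesterol and fatty acid synthesis 7 were higher and 2 lower (median 0.31). SCD, which puts the first double bond into saturated fatty acids, read 9.93, 10.86 and 10.39 in cauda, against 7.49, 7.27 and 7.36 in corpus (log2 difference 3.02, adjusted p 0.00152). SREBF1, the transcription factor that drives fatty acid synthesis, differed by 1.31 (adjusted p 0.0019), ACACA, acetyl-CoA carboxylase, by 1.03 (adjusted p 2.12e-05) and FDFT1, squalene synthase, by 0.90 (adjusted p 0.000488). ACLY, which supplies cytosolic acetyl-CoA, was lower (-0.92, adjusted p 0.0059), as was PMVK of the mevalonate pathway (-0.95, adjusted p 0.00551). The gains and losses thus fell on different steps of the same routes.

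Of 24 steroid genes 4 were higher and 0 lower, with 6 and 3 in the paired fit. Both oestrogen receptors were among them. ESR1 read 9.64, 9.999 and 10.23 in cauda, against 8.69, 8.92 and 8.94 in corpus (log2 difference 1.11, adjusted p 0.000226) and ESR2 read 11.21, 11.26 and 11.21 in cauda, against 10.39, 10.29 and 10.44 in corpus (log2 difference 0.86, adjusted p 0.00242). HSD3B1, the enzyme after CYP11A1, differed by 0.83 (adjusted p 0.03, paired fit 0.0543), a call lost without cauda replicate 2 or corpus replicate 1, 2 or 3 (adjusted p 0.0541 to 0.119). HSD17B4 differed by 0.43 (adjusted p 0.0588) and passed in the paired fit (0.0481).

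In sugar metabolism, of 27 glycolysis and hypoxia genes 7 were higher and 2 lower, and the paired fit called 7 higher and 4 lower. PFKP, platelet-type phosphofructokinase, differed by 1.65 (adjusted p 0.000233), NDRG1 by 1.62 (adjusted p 0.000911) and the lactate carrier SLC16A3 by 1.39 (adjusted p 0.000202), whereas EGLN3, an oxygen-sensing prolyl hydroxylase, was lower (-2.08, adjusted p 0.00128). The enzymes of the core pathway with the brightest signals, GAPDH, TPI1 and GPI, differed by 0.19, -0.03 and -0.09 (adjusted p 0.304, 0.902 and 0.702). FBP1, the gluconeogenic fructose bisphosphatase, read 6.55, 6.90 and 7.05 in cauda, against 8.76, 9.54 and 8.87 in corpus (log2 difference -2.22, adjusted p 1.34e-05). Of 62 respiratory chain subunits 12 were higher and 1 lower, with small differences (median 0.15), and the paired fit called 5 and 0. The count of higher subunits was 6 to 9 without 1 of the 6 arrays, the lowest without cauda replicate 3 or corpus replicate 3. UQCRB of complex III had the largest at 0.69 (adjusted p 0.00803).

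Amino acid carriers went both ways, with 5 of 29 higher and 2 lower, and 7 and 4 in the paired fit. SLC1A5, a glutamine carrier, read 8.08, 8.28 and 8.22 in cauda, against 9.88, 11.31 and 11.11 in corpus (log2 difference -2.57, adjusted p 9.83e-05), and SLC7A11, the cystine-glutamate exchanger, read 7.60, 8.02 and 7.995 in cauda, against 10.35, 10.47 and 10.40 in corpus (log2 difference -2.53, adjusted p 5.84e-05). SLC6A6, the taurine carrier, was higher (1.61, adjusted p 5.17e-05), as was SLC3A1, a subunit of the cystine carrier of kidney (2.38, adjusted p 0.00944), whose call was lost without cauda replicate 3 (adjusted p 0.0514). The drug and glutathione pump ABCC1 was lower (-1.42, adjusted p 0.00121).

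Immediate early genes, which switch on quickly after a stimulus, were higher as a group. Of 31 immediate early and heat shock genes 14 were higher and 1 lower (median 0.52). NR4A3, an orphan nuclear receptor, read 10.64, 9.38 and 9.80 in cauda, against 6.54, 5.96 and 7.14 in corpus (log2 difference 3.40, adjusted p 0.000226), and CCN2, connective tissue growth factor, read 12.39, 12.56 and 12.67 in cauda, against 8.84, 9.29 and 9.40 in corpus (log2 difference 3.36, adjusted p 3.78e-06). NR4A1 and NR4A2 differed by 2.34 and 1.35 (adjusted p 0.00302 and 0.00504), so that the 3 NR4A receptors were all higher. FOS differed by 1.54 (adjusted p 0.0357), a call lost without any 1 of the 6 arrays (adjusted p 0.0693 to 0.0957). EGR2 was the 1 member that was lower (-1.28, adjusted p 3.02e-05), while EGR1, named after its values were seen, read 11.26, 10.62 and 11.04 in cauda, against 9.66, 9.21 and 10.04 in corpus (log2 difference 1.33, adjusted p 0.11, paired fit 0.00466). HSPA8 and JUN differed by -0.09 and 0.17 (adjusted p 0.557 and 0.653). The list mean was 9.38, 9.25 and 9.28 in cauda, against 8.55, 8.52 and 8.67 in corpus; the smooth muscle and matrix lists move with it, and their part was not tested.

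Ligands and inhibitors of the TGF-beta family were both among the changed genes, with GDF3 the largest loss. Of 45 members, 11 were higher and 5 lower, and the paired fit called 10 higher and 2 lower. The lower count was 2 to 5 without 1 of the 6 arrays, the lowest without cauda replicate 2 or corpus replicate 2. The ligand TGFB2 read 9.51, 9.34 and 9.79 in cauda, against 7.66, 7.40 and 8.27 in corpus (log2 difference 1.77, adjusted p 0.00146), and BMP2 differed by 1.21 (adjusted p 0.00131). The antagonists FST, which binds activins (1.39, adjusted p 0.000374), GREM1, which binds bone morphogenetic proteins (1.16, adjusted p 0.00251), and the decoy receptor BAMBI (1.41, adjusted p 0.00654) were higher with them. The receptors BMPR2 and BMPR1A differed by -0.13 and 0.23 (adjusted p 0.647 and 0.0919). Of 29 WNT regulators 3 were higher: LGR5, a receptor for R-spondins that marks stem cells in several epithelia, SFRP4, and DKK3 (1.05, adjusted p 0.00693). LGR5 read 9.60, 8.09 and 9.41 in cauda, against 6.33, 6.47 and 6.72 in corpus (log2 difference 2.52, adjusted p 0.00118). The paired fit called 4 higher and 1 lower among the WNT regulators. Of 22 genes of ERK signalling and its feedback 3 were higher and 0 lower, with 6 and 3 in the paired fit.

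HOX genes, which give cells their position along the body axis, split by cluster. HOXA10 read 8.37, 8.19 and 9.24 in cauda, against 6.33, 6.31 and 6.58 in corpus (log2 difference 2.19, adjusted p 8.22e-05), and HOXA9 read 8.68, 8.51 and 9.45 in cauda, against 7.40, 6.84 and 6.85 in corpus (log2 difference 1.85, adjusted p 0.00332). Lower were HOXB9 at 8.58, 8.14 and 8.37 in cauda, against 9.25, 9.63 and 9.25 in corpus (-1.01, adjusted p 0.000781), HOXB8 (-0.94, adjusted p 0.000607) and HOXB3 (-0.86, adjusted p 0.00129). In all, 5 of 31 were higher and 7 lower; by cluster, 4 of 9 HOXA genes were higher and 0 lower, 0 of 8 HOXB genes higher and 6 lower, 0 of 6 HOXC genes higher and 0 lower, and 1 of 8 HOXD genes higher and 1 lower. The count of higher genes was 3 to 7 without 1 of the 6 arrays, the lowest without cauda replicate 1 or corpus replicate 1, 2 or 3. HOXA5, the brightest of those that did not pass, had near-equal means (10.47 in cauda and 10.47 in corpus). HOXD10 was higher by 1.04 (adjusted p 0.0444, paired fit 0.12), a call lost without cauda replicate 1 or 3 or corpus replicate 1, 2 or 3 (adjusted p 0.0914 to 0.167).

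Of 32 genes of innate defence, 9 were higher and 0 lower (median 0.04), and the paired fit called 9 higher and 2 lower. The higher count was 4 to 7 without 1 of the 6 arrays, the lowest without corpus replicate 1 or 3. TLR7, a sensor of single-stranded RNA, read 10.62, 10.15 and 10.31 in cauda, against 8.20, 7.86 and 8.10 in corpus (log2 difference 2.31, adjusted p 0.00379), and its neighbour TLR8 differed by 1.58 (adjusted p 0.00616). TLR5, the flagellin receptor, read 8.81, 8.92 and 8.74 in cauda, against 6.85, 6.49 and 6.41 in corpus (log2 difference 2.24, adjusted p 9.41e-06). CD55, which breaks down complement convertases, differed by 1.18 (adjusted p 0.00811), the protease CFI, which inactivates C3b, by 1.40 (adjusted p 0.0338) and complement C3 by 1.09 (adjusted p 0.0349, paired fit 0.0565). CFI lost its call without any 1 of the 6 arrays (adjusted p 0.0527 to 0.121), and C3 without cauda replicate 1 or 3 or corpus replicate 1 or 3 (adjusted p 0.0743 to 0.139). TLR4, the endotoxin receptor, differed by 0.32 (adjusted p 0.294). Of 23 interferon-stimulated genes 0 were higher and 2 lower: USP18 (-1.22, adjusted p 0.0129, paired fit 0.0568) and MX1 (-1.13, adjusted p 0.0166, paired fit 0.0632). The paired fit called 1 lower in that list. USP18 lost its call without cauda replicate 1 or corpus replicate 1 (adjusted p 0.0604 to 0.065), and MX1 without cauda replicate 1 or 2 or corpus replicate 1 (adjusted p 0.0523 to 0.0732). The counts of leukocyte markers are given above.

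Calcium-binding S100 proteins split, with 4 of 15 higher and 3 lower. Of the lower members only S100B, the lowest at -1.1, kept its call whichever of the 6 arrays was left out. Not every higher member kept its call either. S100A10, a partner of annexin A2, read 11.61, 11.89 and 11.59 in cauda, against 8.41, 8.19 and 9.14 in corpus (log2 difference 3.12, adjusted p 0.000153), and the adjacent S100A11 differed by 1.81 (adjusted p 0.000184). MUC1, a membrane mucin, read 9.24, 7.77 and 8.81 in cauda, against 6.19, 6.60 and 6.23 in corpus (log2 difference 2.27, adjusted p 0.000118), with the second cauda array the lowest of the 3. Of 26 cell cycle genes 0 were higher and 3 lower (median -0.47), and the paired fit called 15 lower. BUB1B of the spindle checkpoint differed by -0.93 (adjusted p 0.00591) and MKI67 by -0.97 (adjusted p 0.0373), a call lost without any 1 of the 6 arrays (adjusted p 0.052 to 0.155).

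The same segments of the 3 medium-low fertility bulls gave a comparison on separate arrays, though with the same pooled spread. There 2715 probe sets (10.1%) passed. Of the 1104 probe sets (4.12% of all) that passed with at least 2-fold in high fertility bulls, 1101 (99.7%) had the same sign and 859 (77.8%) also passed in medium-low bulls. As many as 676 were at least 2-fold in both, which is 61.2% of the high fertility set and 84.8% of the 797 of medium-low bulls (2.98% of all). The median difference of the gains was 1.39 in high fertility bulls and 1.11 in medium-low bulls, and of the losses -1.48 and -1.31, where the probe sets had been picked for their size in high fertility bulls. GDF3 differed by -6.71 in medium-low bulls, GPR50 by 4.92 and ELF5 by -5.75. The medium-low cauda arrays read 12.54, 12.49 and 8.32 for GPR50, so its smaller difference there rests mostly on replicate 3. That array was also the lowest of the 3 for NRK (11.49, 10.80 and 8.49) but the highest for SCGB1D (9.29, 9.12 and 12.16).

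**Figure D5:**
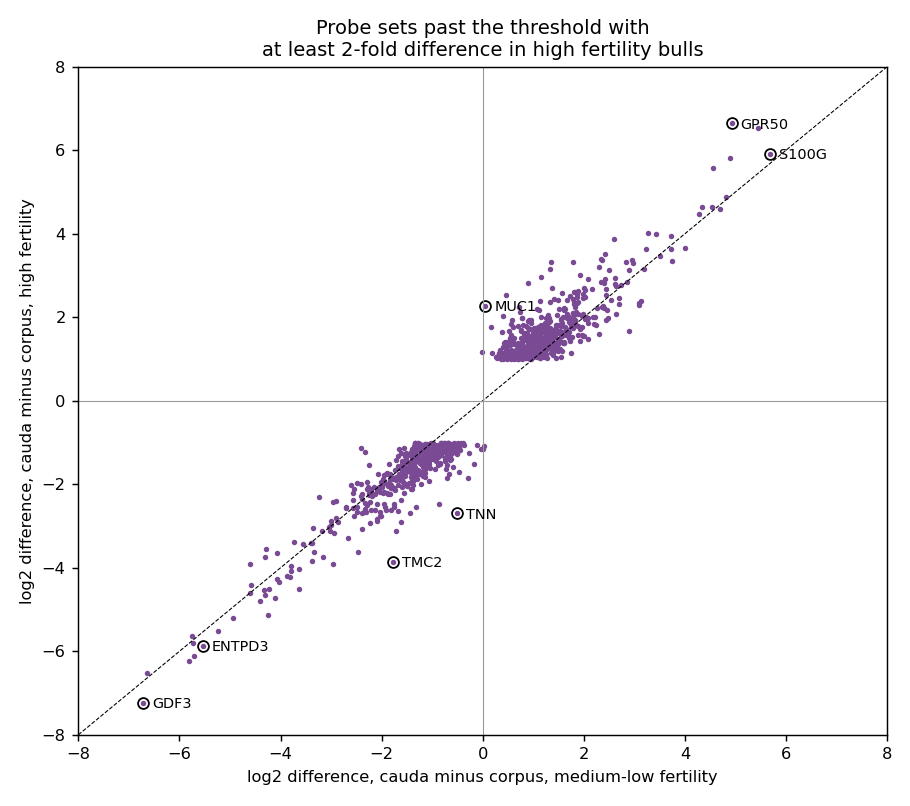
Each point is 1 of the 1104 probe sets that passed with at least a 2-fold difference in high fertility bulls: the vertical axis gives the log2 difference cauda minus corpus in high fertility bulls, the horizontal axis that in medium-low fertility bulls, and the dashed line marks equal values. Signs match for 1101 points, and circles name genes of the text.

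Whether the segment difference itself depended on fertility was tested as a difference of differences, high minus medium-low. None of 26773 probe sets passed in limma, and 829 (3.1%) had an unadjusted p under 0.05. The genes named next are the largest with an unadjusted p under 0.05, and none of them passed. MUC1 differed by 2.27 in high and 0.05 in medium-low bulls (difference of differences 2.22, SE 0.42, unadjusted p 9.13e-05, adjusted p 0.998). LGR5 differed by 2.52 and 0.46, PCDHB1, a clustered protocadherin, by 3.32 and 1.34, and PRG4, the lubricating proteoglycan of joints, by 2.82 and 0.89. GPX5 differed by 2.47 in high and -0.55 in medium-low bulls. The medium-low arrays spread widely for GPX5, at 9.36, 9.17 and 7.04 in cauda and 9.97, 10.84 and 6.39 in corpus. Medium-low cauda arrays also spread for PCDHB1, at 7.53, 6.35 and 4.98. On the other side, TNN, a tenascin, differed by -2.70 and -0.50, TMC2, a channel of hair cell mechanotransduction, by -3.85 and -1.78, MMD2 by -3.12 and -1.72, GARNL3 by -1.72 and -0.48 and the microRNA gene MIR677 by -0.33 and 1.06. The high fertility call of TNN was lost without cauda replicate 1 or 3 or corpus replicate 1 (adjusted p 0.0508 to 0.0695). Its medium-low cauda arrays read 7.57, 8.10 and 10.87. In cauda, MUC1 read 8.61 in high fertility bulls and 6.35 in medium-low bulls (means, n = 3 each), while the corpus means were 6.34 and 6.30.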

How the data were processed

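RNA of 18 tissue pieces, 3 for each of 3 epididymal segments and 2 fertility groups, was hybridised to 1-colour bovine gene arrays. The deposited values are log2 signals per probe set, made by the authors with RMA, and the submitters' processing notes name Affymetrix Expression Console and Partek 6.5 without saying which did what. The genome build behind the probe sets was not given in the sources used here, and no detection calls were used. The deposited values were taken as they stand.

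Of 26773 probe sets, 18457 carried 1 gene symbol in the platform annotation, 688 several and 7628 none, and only those with 1 symbol were named. Of these, 17996 were found in the RefSeq gene table of assembly ARS-UCD2.0 (names and gene order only), and 0 symbols changed. For each of the 18010 genes the probe set with the highest mean over 18 arrays stood for the gene, and 123 entries of the 51 gene lists had no probe set.

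limma 3.58.1 in R 4.3.3 (statmod 1.5.0 for the random block) was fitted to all 18 arrays with 6 group means and empirical Bayes moderation, contrasts were cauda minus corpus and its difference between fertility groups, and Benjamini-Hochberg adjustment ran over the whole table. Groups came from the array titles, and the titles give the replicates as separate samples without saying which came from which bull, so the p-values measure the spread between these samples. With 3 arrays per group, the number of arrays limits the precision. Same-numbered cauda and corpus arrays deviated together (correlations of 0.154, 0.208 and 0.213 in high fertility bulls). The main fit held no block, so its SEs, p-values and counts leave this pairing out. Only in an additional fit of the 6 arrays were the numbers taken to pair the samples, as a block. That paired fit is given where it changed a call or moved a count more than 1.5 times. On simulated data of the same design, limma recovered 82 of 100 probe sets changed by 1 log2 unit and 94 of 100 changed by 2, and 17 of its 193 calls were unchanged probe sets. The simulated noise was independent between arrays, with 1 spread per probe set in all groups. Only 200 of 26773 probe sets were changed, against 3881 calls in the real data. These rates therefore need not hold for the real arrays.

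The text names the 12 genes with the largest gain and the 12 with the largest loss without overlap between arrays, the 5 others with the smallest adjusted p, up to 6 passing and 3 bright non-passing members of each list, and the 5 genes on each side of the fertility contrast. A list of 15 or fewer measured members could be named in full, but most of these lists were not. A member left unnamed may still have been measured. The comparison, the lists and their members were chosen with earlier results of these data known. Alternatives changed the arrays in the fit, the block, scaling, array weights, prior, filter and probe set per gene, and left out each array in turn.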

Additional observations from a re-analysis of the deposited data

Results flagged for a closer look

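KRT8, a keratin of simple epithelium, was lower in cauda in every same-numbered high fertility pair and higher in every medium-low pair. It was the only gene flagged when genes of the text were screened for pairs opposite in the fertility groups. Such a pattern can arise among many genes without any difference, and how often was not tested. Same-numbered cauda minus corpus differences of KRT8 were -0.24, -0.16 and -0.22 in high fertility bulls, against 0.21, 0.16 and 0.06 in medium-low bulls. The mean difference was -0.21 in high fertility bulls (adjusted p 0.464), against 0.14 in medium-low bulls. Neither passed in limma, and the difference of differences was -0.35 (SE 0.23, unadjusted p 0.149, adjusted p 1), which did not pass either.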

How the results depend on the processing

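The 3881 calls for cauda minus corpus in high fertility bulls became 2825 to 3043 when 1 of the 6 arrays was left out and 3505 to 5377 under the other planned settings. The fit of the 6 arrays with the replicate number as a block gave 4084 calls, and the 18 arrays with it as a random block gave 4898. The highest count, 5377, came with array weights, and the lowest, 3505 and 3596, from the 18010 probe sets of 1 per gene and the 13387 brighter ones, where fewer were tested. By the rule of an unadjusted p under 0.05 and a fold of 2 or more, 678 probe sets were higher and 555 lower. Of settings chosen after seeing the data, the block over the 9 high fertility arrays gave 5564 calls, and the fit without the 3 medium-low caput arrays gave 4756. Of the 1104 calls of at least 2-fold, 87.4% to 91.6% were kept when 1 array was left out and 96.7% to 100% under the other settings that tested all of them, and 0 changed sign. A count of higher or lower genes moved by more than 1.5 times, or to or from 0, in 32 of 51 gene lists without 1 of the 6 arrays and in 31 with the block, mostly where the count was 5 or fewer. None of the genes in the text changed sign with a call in any setting, and the block changed no call of a gene in the text beyond those given with it.

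No probe set passed for the difference between fertility groups, except 1 without high fertility cauda replicate 2, where MUC1 differed by 2.64 (adjusted p 0.0216). With the block nested in fertility group 0 passed, and 1637 had an unadjusted p under 0.05, against 829 without it. No detection calls were used, so low signals could not be told from background.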

Other observations

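Of the tissue inhibitors of metalloproteinases, secreted proteins that block matrix proteases, TIMP1, TIMP2 and TIMP3 were higher in cauda, and TIMP4, named after its values were seen, differed by 0.30 (adjusted p 0.37). TIMP2 read 11.12, 11.01 and 11.32 in cauda, against 10.35, 9.87 and 10.46 in corpus (log2 difference 0.93, adjusted p 0.00183), and TIMP3 differed by 0.41 (adjusted p 0.0366). TIMP1 differed by 1.38 (adjusted p 0.0479), a call lost without any 1 of the 6 arrays (adjusted p 0.0838 to 0.125), and TIMP3 lost its call without cauda replicate 1 or 3 or corpus replicate 1, 2 or 3 (adjusted p 0.0748 to 0.117). MMP23 was lower (-1.28, adjusted p 0.00224). Of 17 genes of the list, 4 were higher and 1 lower. The higher count was 2 to 4 without 1 of the 6 arrays, the lowest without cauda replicate 1 or 3 or corpus replicate 1, 2 or 3. Of the ADAM proteases, ADAM15 and ADAM17 were higher by 0.65 and 0.39 (adjusted p 0.0285 and 0.014), calls lost without cauda replicate 1 or 2 or corpus replicate 2 or 3 (adjusted p 0.0597 to 0.107) and without cauda replicate 3 (adjusted p 0.0558). In the polyol list, KHK, which phosphorylates fructose, read 8.65, 8.69 and 8.73 in cauda, against 7.79, 7.62 and 7.87 in corpus (log2 difference 0.94, adjusted p 0.000446), and AKR1B10, a relative of aldose reductase, differed by 0.77 (adjusted p 0.00349).

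Prostaglandin genes went both ways. PTGER3, a receptor of prostaglandin E2, read 6.01, 5.61 and 6.15 in cauda, against 7.39, 7.90 and 6.85 in corpus (log2 difference -1.46, adjusted p 0.00213), while PTGS2, the inducible cyclooxygenase, was higher by 0.86 (adjusted p 0.0408), a call lost without any 1 of the 6 arrays (adjusted p 0.0584 to 0.129). In the list of 25 lipid carriers and prostaglandin genes, 2 were higher and 3 lower, and the paired fit called 4 higher and 5 lower. Of 22 genes of motile cilia, 2 were higher and 3 lower, and the paired fit called 3 higher and 6 lower. LRRIQ1 differed by -1.64 (adjusted p 0.00295) and the dynein chain DNAI1 by 0.67 (adjusted p 0.00505). Of 31 organic ion carriers, 3 were higher and 3 lower. SLC22A3, an organic cation carrier, was lower (-0.88, adjusted p 0.0128), a call lost without cauda replicate 1 or 3 or corpus replicate 3 (adjusted p 0.0515 to 0.0633).

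Some genes varied widely between arrays of 1 segment; those that follow were chosen after their values were seen. The 3 cauda arrays spanned over 2 log2 units for 34 of 18010 genes and the 3 corpus arrays for 26, with median spans of 0.259 and 0.231. ULBP3, a ligand of a natural killer cell receptor in human, read 6.09, 9.09 and 6.10 in cauda, against 5.67, 9.02 and 6.13 in corpus, so that replicate 2 was high in both segments. PI3, the elastase inhibitor elafin, read 10.13, 7.61 and 7.42 in cauda, against 10.40, 8.09 and 8.66 in corpus, high in replicate 1 of both. Other genes varied within 1 segment. CES5A, a carboxylesterase secreted by the epididymis, read 11.88, 12.66 and 10.18 in cauda, against 13.36, 13.48 and 13.42 in corpus. SNAP25, a membrane fusion protein of nerve endings, read 9.81, 9.12 and 8.63 in cauda, against 9.92, 6.32 and 6.43 in corpus. GABRR3, a GABA receptor subunit, read 4.27, 4.21 and 4.14 in cauda, against 4.65, 8.63 and 8.48 in corpus, where replicate 1 stood with the cauda arrays.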
